A study of Mus musculus with 5 samples.

Results

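Peritubular capillary endothelial cells were taken from kidneys of mice given aristolochic acid I (AAI), a plant nephrotoxin that forms DNA adducts and injures the proximal tubule, and from control kidney. A cell barcode was counted as a peritubular capillary endothelial cell when it held at least 4 UMIs (unique molecular identifiers, each standing for 1 captured transcript) of Plvap, Kdr and Emcn together, at least 1 of them from Plvap, at most 1 UMI of the arterial genes Sox17, Gja4 and Gja5, no UMI of Ptprc or of the Cd3 genes, and at most 2 UMIs of the C1q genes. The rule found 1777 cells among 60043 barcodes that passed the filters on mitochondrial UMIs and detected genes, out of 72896 deposited barcodes. All mice were wild-type male C57BL/6 animals of 8 to 10 weeks. The AKI (acute kidney injury) group had received AAI at 3 mg/kg into the peritoneum every 3 days and was sampled at week 2, the CKD (chronic kidney disease) group was sampled at week 4 after the injections had stopped at week 2, and the control had received vehicle by the study's methods, whereas its results call it the baseline. There were 2 libraries for AKI, 2 for CKD and 1 for the control, each from dissociated whole kidney, and nothing in the labels says whether a library came from 1 animal, so that the spread between libraries may be technical in part.

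The peritubular capillaries form the second capillary bed of the kidney, behind the glomerulus and the efferent arteriole, and surround the tubules. Their endothelium is thin and fenestrated, with diaphragms built from the PLVAP protein, and it takes back the water and solutes that the tubules reabsorb. It depends on VEGF from the tubular epithelium, which it receives through KDR (VEGFR2) and the co-receptor NRP1, and its rarefaction is a known feature of the transition from AKI to CKD. Endothelium exposed to cytokines displays selectins and immunoglobulin-type adhesion molecules that capture leukocytes, and cells with damaged DNA induce target genes of p53.

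The genes that the results turn on most were called higher in AKI than in the control and belong to 2 groups, a p53 target and genes that nuclear factor kB is known to drive, so the 250 bases before the start sites of 5 of them are shown. The sequences come from RefSeq on GRCm38.p6 and run 5′ to 3′ on the strand of the gene, and the capitals mark matches on either strand to the p53 half-site consensus in Cdkn1a and to the letters GGNNNTTCC in the others. The windows are chr17:29090729-29090978 (plus strand) for Cdkn1a at the more upstream of its 2 start sites, chr1:164047984-164048233 (plus strand) for Sele, chr1:164115014-164115263 (plus strand) for Selp, chr5:90903649-90903898 (plus strand) for Cxcl2, and chr10:19015411-19015660 (minus strand) for Tnfaip3 at the first of its 2 start sites.
Cdkn1a: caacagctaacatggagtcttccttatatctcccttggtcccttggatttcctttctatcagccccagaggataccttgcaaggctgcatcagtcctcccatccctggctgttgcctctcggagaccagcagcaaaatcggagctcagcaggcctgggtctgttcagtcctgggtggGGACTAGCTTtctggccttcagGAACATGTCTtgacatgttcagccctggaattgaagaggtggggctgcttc
Sele: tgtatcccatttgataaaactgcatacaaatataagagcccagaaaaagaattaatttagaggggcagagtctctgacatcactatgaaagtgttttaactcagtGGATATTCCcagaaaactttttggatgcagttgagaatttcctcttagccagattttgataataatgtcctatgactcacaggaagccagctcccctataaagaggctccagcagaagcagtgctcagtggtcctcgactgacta
Selp: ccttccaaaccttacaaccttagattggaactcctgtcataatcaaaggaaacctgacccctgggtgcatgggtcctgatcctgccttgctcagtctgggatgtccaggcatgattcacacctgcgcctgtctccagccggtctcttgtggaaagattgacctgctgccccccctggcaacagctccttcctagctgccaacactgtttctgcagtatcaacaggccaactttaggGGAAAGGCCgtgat
Cxcl2: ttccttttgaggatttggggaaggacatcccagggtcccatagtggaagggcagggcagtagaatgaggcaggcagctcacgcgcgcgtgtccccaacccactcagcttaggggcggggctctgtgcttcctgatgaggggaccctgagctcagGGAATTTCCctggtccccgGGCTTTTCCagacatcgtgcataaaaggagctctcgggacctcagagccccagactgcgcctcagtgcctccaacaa
Tnfaip3: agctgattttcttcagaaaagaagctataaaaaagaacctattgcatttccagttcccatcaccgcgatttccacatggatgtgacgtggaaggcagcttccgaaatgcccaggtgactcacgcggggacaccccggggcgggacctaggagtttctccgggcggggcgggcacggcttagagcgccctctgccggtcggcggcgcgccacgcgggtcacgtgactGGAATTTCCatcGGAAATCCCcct
In Cdkn1a the 2 half-site matches began 73 and 51 bases before the start, in Sele the single match began 145 bases before it, in Selp 14 bases, in Cxcl2 96 and 77 bases, and in Tnfaip3 24 and 12 bases. Such matches are common. GGNNNTTCC was found in 5144 of 32851 promoters of the same length, 15.7%, and the half-site consensus in 2341, 7.13%. The windows of Phlda3 and of the downstream start site of Cdkn1a held 0 half-site matches, which says only that these letters are absent from these windows.

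The cells carried most of the pan-endothelial markers that the rule had not used, but Cldn5 was an exception. It had a UMI in 3.67% of the control cells and in 4.90 to 10.9% of those of the injured libraries. The summed level of 6 pan-endothelial genes, among them Pecam1, Cdh5 and Cldn5, was between 25.1 and 38.7 UMIs per 10000 in the 5 libraries, against 0.335 or less in T lymphocytes. T lymphocytes were numerous in every library and served here as the measure of free RNA. Barcodes with 2 or more UMIs of Plvap, Kdr and Emcn together had been left out of them, so their endothelial RNA is low in part by choice. Before that step, 2.56 to 6.01% of the barcodes chosen by Cd3 and Ptprc held a Plvap UMI. The 2 markers of cortical capillaries differed: Igfbp3 stood at 15.8 UMIs per 10000 in the control, 11.1 and 22.1 in AKI, and 25.6 and 34.8 in CKD, and Npr3 at 3.57, then 0.609 and 0.263, then 0.922 and 0.457. The label was not met in 1 respect, since Ehd3, a marker of glomerular endothelium, had a UMI in 60.5% of the control cells, against 13.9% of the control's T lymphocytes. Its level was 3.45 UMIs per 10000 in the control and 1.04 to 1.77 in the injured libraries. The other glomerular markers differed from it. Sost had a UMI in 1.13% of the control cells. Plat stood at 1.53 in the control, 1.67 and 2.91 in AKI, and 1.59 and 2.05 in CKD. Tspan7 stood at 0.541, then 0.510 and 0.510, then 0.571 and 0.653. By Ehd3, the rule did not set peritubular capillaries fully apart from glomerular ones. The counts below are therefore also given without cells that held 2 or more UMIs of glomerular markers. At the edge of the rule, 22 cells of the control, 6 and 10 of AKI, and 17 and 0 of CKD held exactly 4 UMIs of Plvap, Kdr and Emcn, and 20, 8, 8, 44 and 3 barcodes lay just outside it with 3 UMIs. The median sum of the 3 genes was 17 to 32 UMIs per cell. The podocyte, B lymphocyte and neutrophil markers were at or near 0 in every library, and no doublet caller was run.

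RNA of tubule cells was also present. The summed level of 3 thick ascending limb genes was 29.3 UMIs per 10000 in the control, 27.4 and 1.33 in AKI, and 31.5 and 16.8 in CKD, and in T lymphocytes of the same libraries it was 19.1, 3.22, 1.75, 5.85 and 0.852. Umod, the most abundant transcript of the thick ascending limb, had a UMI in 85.7% of the peritubular capillary cells and 86.7% of the T lymphocytes of the control. The 6 pericyte and fibroblast markers summed to 1.30 in the control, to 4.51 and 1.92 in AKI and to 0.221 and 0.0392 in CKD, where 2 and 4 of the 6 were at 0. The cells held a median of 3140 to 5443 UMIs per library and a sum of 765147 to 4828256 UMIs, and the deepest single cell held 84698 UMIs. Of the peritubular capillary barcodes of a library, at most 4 also occurred in any other library, and 1 was a peritubular capillary cell in both.

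The share of peritubular capillary cells was far lower in the injured kidneys. They made up 11.6% of the kept barcodes in the control, 1.45% and 1.61% in the AKI libraries, and 1.27% and 1.38% in the CKD libraries. The exact 95% binomial intervals, which cover counting error only, were 10.9 to 12.3% in the control, 1.24 to 1.69% and 1.38 to 1.87% in AKI, and 1.12 to 1.44% and 1.15 to 1.63% in CKD. The control lay above all 4 injured libraries, at 8.12 times their mean, and the intervals of the AKI and CKD libraries overlapped. The rule left out further barcodes that met its cut on Plvap, Kdr and Emcn. For arterial UMIs it left out 286 in the control, 205 and 153 in AKI, and 243 and 109 in CKD. For Ptprc, Cd3 or C1q UMIs it left out 115 in the control, 124 and 119 in AKI, and 291 and 95 in CKD. Their part in the difference of the shares was not tested. With 1 control library and 2 per injured group no test was made, since an exact permutation test of 2 libraries against 2 cannot go below p = 0.33.

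Leukocytes were a larger part of the injured kidneys, and the denominator moved the size of the difference. Over kept barcodes without a Ptprc UMI, which leaves out most leukocytes, the share was 16.9% in the control, 5.26% and 6.48% in AKI, and 2.74% and 8.91% in CKD. The control was still the highest library, now at 2.90 times the mean of the injured ones, and the CKD libraries lay on either side of both AKI libraries. The mean share in CKD was 0.210 percentage points below that in AKI over all kept barcodes and 0.0448 points below it over barcodes without Ptprc.

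**Figure D1:**
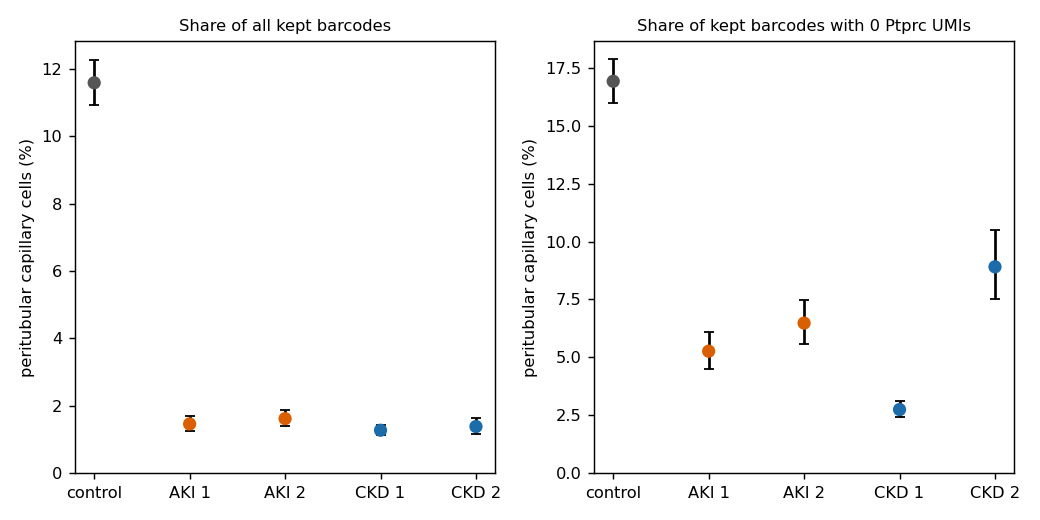
Share of peritubular capillary endothelial cells (%, vertical axis, from 0) in each of the 5 libraries (horizontal axis), over all kept barcodes on the left and over kept barcodes with 0 Ptprc UMIs on the right. Points are libraries and bars are exact 95% binomial intervals. The control stands at 11.6% and 16.9%, above every injured library.

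The question of the AKI and control libraries is which genes of the capillary wall differ at the peak of injury. A rule of size was used, which needs no replicate of the control: at least 2-fold higher or lower in both AKI libraries, with at least 20 UMIs on the higher side and an exact Poisson interval of the ratio that excludes 1. It named 268 genes as higher, 2.42% of 11061, and 394 as lower, 3.56%. The same rule in the CKD libraries named 124 genes as higher, 1.13% of 11017, and 457 as lower, 4.15%. A test was added after the data had been seen: edgeR's quasi-likelihood test on UMIs summed over the cells of each library, in which the lone control was assumed to vary like the injured libraries. Of 10755 genes it called 60 (0.558%) in AKI at an adjusted p under 0.05, 42 higher (0.391%) and 18 lower (0.167%), and 10 (0.093%) in CKD, 7 higher (0.0651%) and 3 lower (0.0279%). Both comparisons use the same control library.

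The counts of this test moved with the cells that entered it. Without cells that carried markers of another cell type it called 573 genes in AKI (7.06% of 8117, 4.45% higher and 2.61% lower) and 349 in CKD (4.3%, 2.85% higher and 1.45% lower), and 38 of the 42 higher and 16 of the 18 lower calls were among those of AKI. Leaving out CKD replicate 1 or CKD replicate 2 raised the count of AKI to 223 and 202, and leaving out 1 injured library at a time gave 32 to 98 calls in CKD, each of the 4 libraries moving it. Without cells holding glomerular markers, which left 483 control cells and 64 to 158 in the injured libraries, it called 5 and 2 genes. The control's matrix also lacks the software line that the other 4 carry and has another layout, and a difference in how it was made cannot be told apart from that of the groups.

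The p53 targets Cdkn1a and Phlda3 were higher in both phases. Cdkn1a, which encodes the cyclin-dependent kinase inhibitor p21, stood at 1.47 UMIs per 10000 in the control, 8.47 and 9.07 in AKI, and 8.14 and 7.72 in CKD. The 4 injured libraries all lay above the control and close to each other. The log2 fold change was 2.58 ± 0.26 (SE) in AKI and 2.49 ± 0.26 in CKD (edgeR adjusted p = 0.0195 and 0.0388). Over the 13 alternative settings the adjusted p of Cdkn1a in AKI ranged from 2.11e-20 to 0.0919 and stayed under 0.05 in 12. After every cell had been thinned to 1000 UMIs, 11.01% of the control cells held a UMI of Cdkn1a, against 41.6% and 47.0% in AKI and 42.4% and 42.2% in CKD.

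Phlda3, a p53 target that restrains AKT signalling, was nearly absent from the control cells, at 0.0953 UMIs per 10000. It stood at 1.13 and 1.64 in AKI and at 1.28 and 1.52 in CKD. The log2 fold change of Phlda3 was 3.86 ± 0.35 in AKI and 3.92 ± 0.35 in CKD (edgeR adjusted p = 0.0166 and 0.036), and no single cell held more than 13.8% of its UMIs in an injured library. Of the 21 tested genes of the p53 and DNA damage list these 2 were called higher in each phase, against 0.391% of all genes tested in AKI and 0.0651% in CKD. The list's median log2 fold change was 1.13 in AKI and 1.29 in CKD, against -0.01 and -0.02 over all genes tested. Bax, a mediator of apoptosis, was at 1.15, 2.03, 3.44, 3.4 and 3.33 UMIs per 10000 in the order control, AKI 1, AKI 2, CKD 1, CKD 2 (adjusted p = 0.202 in AKI), and Mdm2, which encodes the ligase that degrades p53, at 0.35, 0.743, 0.865, 0.958 and 0.784 (adjusted p = 0.106).

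Of the adhesion molecules for leukocytes, E-selectin was higher in both phases and P-selectin in AKI. Sele, which encodes E-selectin, stood at 0.0683 UMIs per 10000 in the control, 0.772 and 1.20 in AKI, and 0.857 and 1.05 in CKD, with a log2 fold change of 3.84 ± 0.39 in each phase (edgeR adjusted p = 0.0195 and 0.0388). T lymphocytes held at most 0.00287 UMIs per 10000 of Sele. Selp, which encodes P-selectin, stood at 0.0435 in the control, 1.01 and 1.24 in AKI, and 0.332 and 0.549 in CKD. The CKD libraries thus lay between the control and the AKI libraries for Selp, whose log2 fold change was 4.67 ± 0.42 in AKI and 3.36 ± 0.42 in CKD (edgeR adjusted p = 0.0166 and 0.0668). The difference of Selp between CKD and AKI had a log2 fold change of -1.32 and did not pass its own test (adjusted p = 0.309). Selp was called in AKI in all 13 alternative settings. The 3 venous markers Nr2f2, Vwf and Ackr1 summed to 1.51 UMIs per 10000 in the control, 2.13 and 2.38 in AKI, and 1.35 and 2.47 in CKD. Vwf alone stood at 0.0456 in the control, 0.127 and 0.309 in AKI, and 0 and 0.0392 in CKD. The part of venous-type cells in the selectin values was not tested.

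Icam1, a ligand of the leukocyte integrin LFA-1, was at 1.69, 5.87, 6.13, 5.03 and 6.60 UMIs per 10000 in the order of the libraries above, and Vcam1, a ligand of VLA-4, at 0.762, 3.41, 3.91, 2.21 and 5.08. The control was the lowest library for both, but the adjusted p was 0.0559 for Icam1 and 0.142 for Vcam1 in AKI, so that neither passed. Cells with a UMI of Icam1 after thinning were 15.9% in the control, 31.7% and 32.7% in AKI, and 33.9% and 43.0% in CKD. In the leukocyte adhesion list 2 of 15 tested genes were called higher in AKI and 1 in CKD, against 0.391% and 0.0651% of all genes, and the list's median log2 fold change was 0.19 and 0.27.

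Chemokines and the feedback inhibitor of nuclear factor kB moved in the same direction. Cxcl2, which encodes a neutrophil chemoattractant, stood at 0.157 UMIs per 10000 in the control, 1.22 and 1.18 in AKI, and 1.15 and 0.915 in CKD (log2 fold change 2.94 ± 0.26 and 2.77 ± 0.27, edgeR adjusted p = 0.0166 and 0.038). Tnfaip3, which encodes the inhibitor A20, stood at 0.178, then 1.22 and 1.36, then 1.03 and 1.35 (log2 fold change 2.86 and 2.79, adjusted p = 0.0195 and 0.0388). Cxcl10, an interferon-induced chemoattractant of T lymphocytes, stood at 0.70, then 6.13 and 5.18, then 2.97 and 4.80, and was called in AKI (adjusted p = 0.0365) but not in CKD (adjusted p = 0.0806). T lymphocytes held more of Tnfaip3 and Cxcl10 than the capillary cells in every library, 5.38 to 8.94 and 5.56 to 15.7 UMIs per 10000. Of Cxcl2 they held 0.310 in the control, 0.707 and 0.899 in AKI, and 1.01 and 0.540 in CKD. The part of free RNA in these genes was not tested. In CKD 2 a single cell held 48.2% of the Cxcl10 UMIs. In the chemokine and cytokine list, 2 of 19 genes were called higher in AKI and 1 in CKD, against 0.391% and 0.0651% of all genes, and 1 was called lower in each (0.167% and 0.0279% of all genes), Ccl21a, a lymphatic gene that was almost confined to the control.

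**Figure D2:**
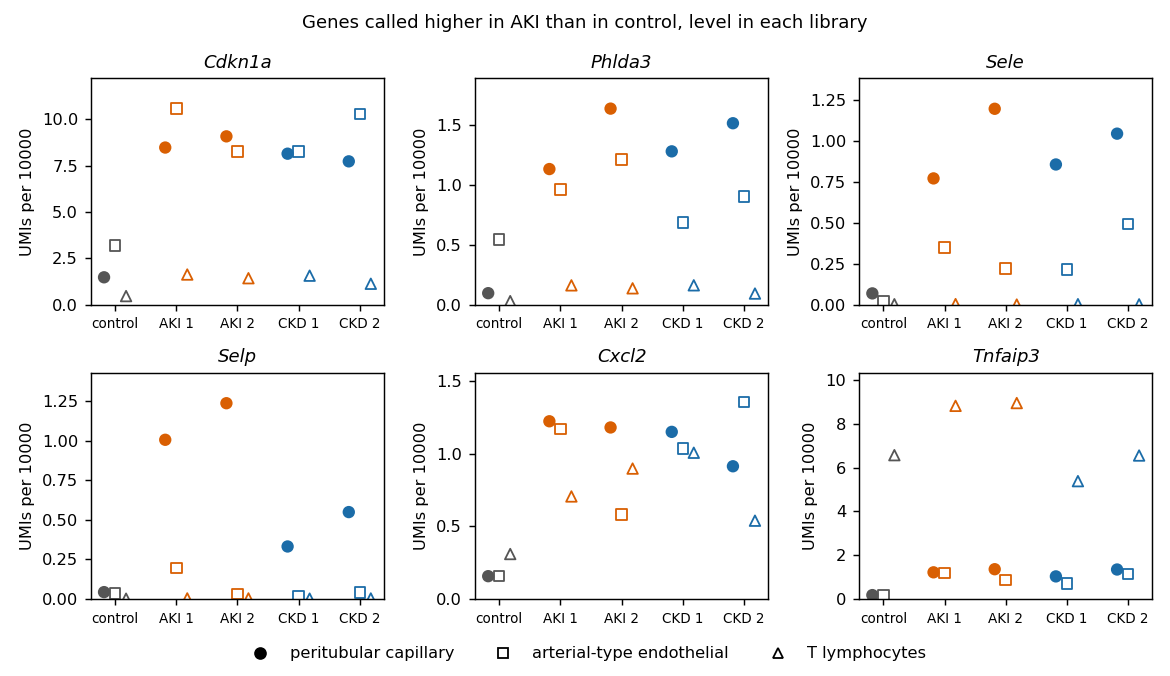
Level of 6 genes called higher in AKI, in UMIs per 10000 (vertical axes, linear, from 0), in each of the 5 libraries (horizontal axes). Filled circles are peritubular capillary endothelial cells, open squares arterial-type endothelial cells and open triangles T lymphocytes, with grey for control, orange for AKI and blue for CKD. The filled circles of the 4 injured libraries lie above that of the control for each gene.

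Further genes called higher in AKI were chosen here after their values were seen. Rnd1, a small GTPase that loosens the cytoskeleton, was at 0.476 UMIs per 10000 in the control and between 2.40 and 3.12 in the injured libraries. Adamts4, a protease of proteoglycans, was at 0.0124 in the control and between 0.35 and 0.51 in the injured libraries. Both were called in both phases (edgeR adjusted p = 0.0195 and 0.0166 in AKI, 0.0388 and 0.036 in CKD). Lrg1, a modulator of TGF-beta signalling in endothelium that the size rule named (adjusted p = 0.0519 in AKI), was at 0.118 in the control, 1.71 and 2.96 in AKI, and 1.84 and 4.06 in CKD. Other calls of AKI lay in few cells. A single cell held 54.9% and 74.6% of the UMIs of Fn1, which encodes the matrix protein fibronectin, and 52.3% and 100% of those of the protease inhibitor gene Serpina3n in the AKI libraries.

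Immediate-early and heat shock genes lay higher in the injured libraries but were not called. All 24 genes of that list had a positive log2 fold change in each phase, with a median of 1.23 in AKI and 1.06 in CKD, and 0 passed the test. Without cells that carried markers of another cell type, which left 290 of the 1063 control cells, 21 of 23 were called higher in each phase, against 4.45% of all genes in AKI and 2.85% in CKD. Hspa1a, which encodes an inducible HSP70, stood at 20.1 UMIs per 10000 in the control, 58.6 and 60.2 in AKI, and 59.1 and 76.2 in CKD (edgeR adjusted p = 0.111 and 0.125). Fos, a subunit of AP-1, stood at 24.6, then 49.5 and 50.5, then 37.5 and 44.6 (adjusted p = 0.229 and 0.452). Arterial-type endothelial cells held 39.7 UMIs per 10000 of Hspa1a in the control and 72.3 to 98.2 in the injured libraries. In T lymphocytes of the same libraries Hspa1a stood at 13.6 in the control and between 5.21 and 11.4 in the injured libraries, and Fos at 15.6 and between 5.79 and 9.39.

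MHC class II genes had positive medians as well, 0.88 in AKI and 1.17 in CKD, and 0 of 8 passed. Without cells that carried markers of another cell type, 4 of 8 were called higher in AKI and 2 in CKD, against 4.45% and 2.85% of all genes. Cd74, the invariant chain, was at 1.45 UMIs per 10000 in the control, 3.82 and 4.02 in AKI, and 6.00 and 3.79 in CKD, while T lymphocytes held 2.46 in the control and 5.49 to 8.76 in the injured libraries. The macrophage markers summed to 0.373 in the capillary cells of the control and to 0.998 to 3.50 in those of the injured libraries, and their part in the MHC class II values was not tested. The 34 nuclear genes of the respiratory chain had a median log2 fold change of -0.40 in AKI, with 0 of them positive, and 0 passed. When cells with markers of another cell type were left out, 9 were called lower in AKI, against 2.61% of all genes. T lymphocytes had a summed level of 172 UMIs per 10000 for these genes in the control, 133 and 119 in AKI, and 176 and 144 in CKD.

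**Figure D3:**
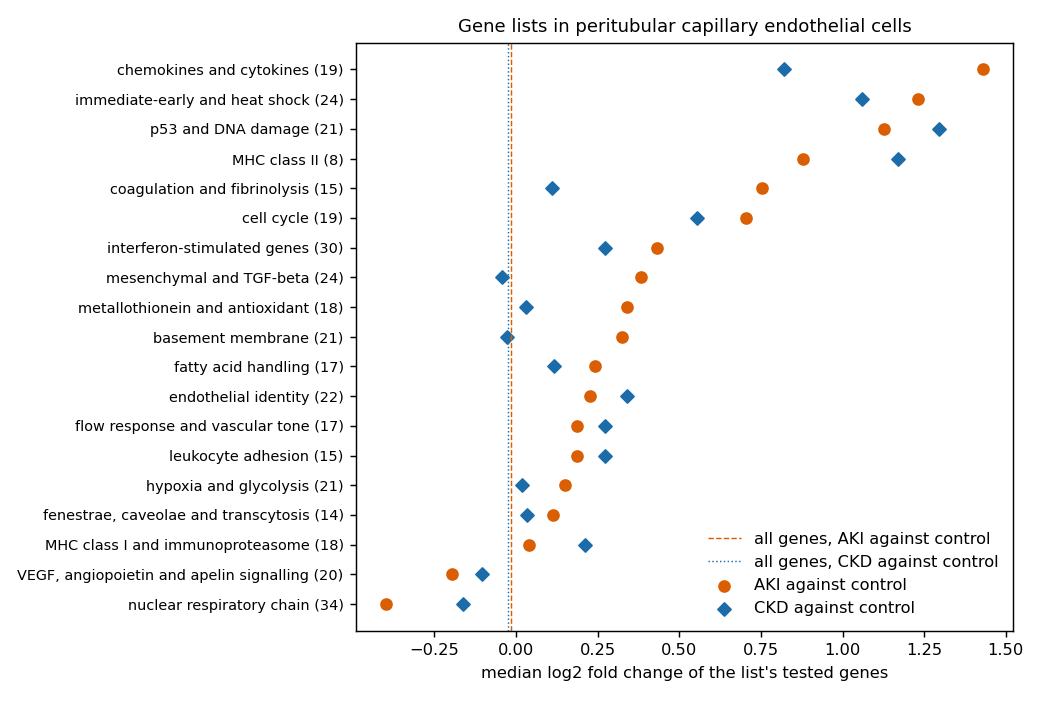
Median log2 fold change against the control (horizontal axis) of the tested genes of 19 lists (vertical axis, with the number tested in AKI in brackets) in peritubular capillary endothelial cells. Orange circles are AKI, blue diamonds CKD, and the dashed and dotted lines are the medians of all genes tested, -0.01 and -0.02. Chemokines, immediate-early genes, p53 targets and MHC class II lie farthest to the right and respiratory chain genes farthest to the left in AKI.

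Nrp1 and 4 other endothelial genes were called lower in AKI. Nrp1, the VEGF co-receptor, stood at 8.49 UMIs per 10000 in the control, 2.32 and 2.50 in AKI, and 3.35 and 2.80 in CKD. The log2 fold change of Nrp1 was -1.81 ± 0.22 in AKI and -1.40 ± 0.22 in CKD (edgeR adjusted p = 0.0299 and 0.0907). Btnl9, a butyrophilin-like gene of capillary endothelium, stood at 3.30, then 0.772 and 0.912, then 1.14 and 1.05, and was called in AKI with a log2 fold change of -1.96 (adjusted p = 0.0203). Clic5, a chloride intracellular channel gene, stood at 3.02, then 0.92 and 1.13, then 1.68 and 1.75 (adjusted p = 0.0423 in AKI). Btnl9 and Clic5 and 2 further calls, Ltbp1 (1.90 in the control against 0.379 to 0.654) and Crispld1 (0.731 against 0.116 to 0.304), were named here after their values were seen. The calls in AKI held in 10 of 13 alternative settings for Nrp1 (adjusted p up to 0.289), in 11 for Btnl9, in 10 for Ltbp1 and in 9 each for Clic5 and Crispld1. The glomerular marker Ehd3 was also lower in the injured libraries, as given above, and its part in these values was not tested.

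Esm1, Npr3 and Igfbp5 also had their highest level in the control, without passing. Esm1, a proteoglycan gene induced by VEGF, stood at 14.1 UMIs per 10000 in the control, 2.52 and 2.94 in AKI, and 6.86 and 3.28 in CKD (edgeR adjusted p = 0.0593 in AKI). Npr3, which encodes the clearance receptor for natriuretic peptides and was one of the cortical capillary markers, stood at 3.57, then 0.609 and 0.263, then 0.922 and 0.457 (adjusted p = 0.056). Igfbp5, which binds insulin-like growth factors, stood at 47.1, then 12.4 and 11.4, then 26.2 and 15.6 (adjusted p = 0.0593). For Esm1 and Igfbp5 both AKI libraries were the lowest, and for Npr3 AKI 1 lay above CKD 2. Kdr, a gene of the rule, was at 15.3, 5.74, 7.2, 7.99 and 7.54 in the same order of libraries, which is given as a description because the cells were chosen with it.

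Among general endothelial genes, none of Flt1, Pecam1 and Fabp4 was called. Flt1, which encodes VEGFR1, was at 21.3, 13.0, 17.1, 17.8 and 20.9 UMIs per 10000, Pecam1 at 6.69, 5.95, 9.24, 6.97 and 7.45, and Fabp4, a fatty acid carrier of capillaries, at 30.8, 28.7, 43.9, 36.6 and 44.2. The control was the highest library for Flt1 (adjusted p = 0.589 in AKI) and lay within the range of the injured libraries for Pecam1 and Fabp4. The median log2 fold change of 22 endothelial identity genes was 0.23 in AKI and 0.34 in CKD, and that of 20 genes of VEGF, angiopoietin and apelin signalling was -0.20 and -0.10, with Nrp1 called lower in AKI.

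**Figure D4:**
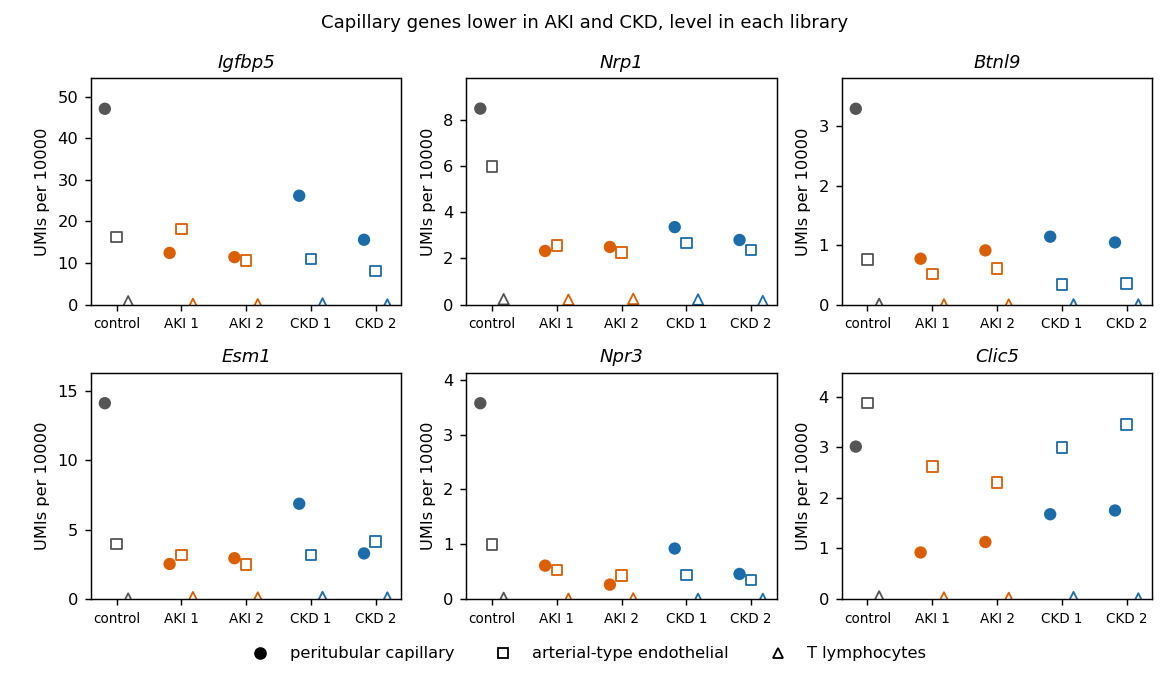
Level of 6 capillary genes in UMIs per 10000 (vertical axes, linear, from 0) in each of the 5 libraries (horizontal axes). Symbols and colours are those of the plot of rising genes: filled circles for peritubular capillary endothelial cells, open squares for arterial-type endothelial cells, open triangles for T lymphocytes. Among the peritubular capillary cells, those of the control hold the highest level of each gene, for Igfbp5 47.1 against 11.4 to 26.2. For Clic5 the arterial-type cells of the control lie higher, at 3.87 against 3.02.

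The other lower calls in AKI included markers of other cell types. Among the 18 were the haemoglobin genes Hba-a1, Hba-a2 and Hbb-bs, of which 1 control cell held 98.2 to 98.8% of the UMIs, the lymphatic gene Ccl21a, and the tubule genes Egf, Calb1, Kap and Kl. Egf stood at 8.37 UMIs per 10000 in the capillary cells of the control and 0.0541 to 0.737 in those of the injured libraries, and T lymphocytes held 6.95 and 0.033 to 0.318. The lymphatic genes Mmrn1 and Lyve1, which the size rule named, were found in control cells.

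The difference between injured and control libraries was then set against that in arterial-type endothelial cells, 843 cells chosen by Sox17, Gja4 and Gja5, in a fit with the library as a block that was added after the data had been seen. The choice did not leave out cells with Plvap. In them the 2 cortical capillary markers summed to 10.2 to 20.7 UMIs per 10000, against 11.7 to 35.3 in the peritubular capillary cells. The 2 descending vasa recta markers summed to 28.3 to 48.8, against 0.0131 to 3.06. Their median of UMIs per cell was 6077 to 13926 over the libraries, against 3140 to 5443. In AKI, 44 of 11352 genes differed between the cell types, 0.388% (33 with a higher change in peritubular capillary cells, 0.291%, and 11 with a lower one, 0.0969%), and in CKD 11, 0.0969% (0.0529% higher and 0.044% lower). Leaving out AKI replicate 1, CKD replicate 1 or CKD replicate 2 left 15, 15 and 13 calls in AKI, and leaving out AKI replicate 2, CKD replicate 1 or CKD replicate 2 left 4, 2 and 3 in CKD. The rise of Phlda3 was larger in the peritubular capillaries, by 2.77 ± 0.31 on the log2 scale in AKI and 3.30 ± 0.32 in CKD (edgeR adjusted p = 0.00125 and 0.000868). The arterial-type cells already held 0.546 UMIs per 10000 of Phlda3 in the control, against 0.0953 in the peritubular capillary cells, and reached 0.964 and 1.21 in AKI and 0.687 and 0.905 in CKD. The difference was called in each of 7 alternative settings in AKI and in 6 of 7 in CKD. For Cdkn1a the same difference was 0.94 and was not called (adjusted p = 0.245), with 3.17 UMIs per 10000 in the arterial-type cells of the control and 8.25 to 10.6 in the injured ones. Arterial-type cells of the injured libraries also held more of other genes than those of the control. In them Tnfaip3 stood at 0.165 in the control and 0.700 to 1.18 in the injured libraries, and Cxcl2 at 0.157 and 0.583 to 1.36. Icam1 stood at 1.39 and 3.12 to 5.81, Rnd1 at 0.551 and 1.56 to 3.25, and Sele at 0.0193 and 0.215 to 0.493. Selp stood at 0.0358 and 0.0202 to 0.197, with AKI 2 and CKD 1 below the control.

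Igfbp5, Btnl9 and Npr3 had a more negative change in AKI than in arterial-type cells. The difference of Igfbp5 was -1.83 ± 0.27 on the log2 scale in AKI (edgeR adjusted p = 0.0103), as its level in arterial-type cells was 16.2 UMIs per 10000 in the control and 18.2 and 10.6 in AKI. That of Btnl9 was -1.60 (adjusted p = 0.0236) and that of Npr3 -2.06 (adjusted p = 0.0278). The calls of Igfbp5, Btnl9 and Npr3 held in 5, 3 and 4 of 7 alternative settings. For Esm1 the difference was -1.96 and did not pass (adjusted p = 0.099), and for Nrp1 it was -0.58 (adjusted p = 0.744), with 5.97 UMIs per 10000 of Nrp1 in the arterial-type cells of the control and 2.25 to 2.67 in the injured ones. Rgcc, a regulator of the cell cycle that is high in capillaries, also had a negative difference, with most of the movement in the arterial-type cells. It stood at 11.8, then 10.4 and 13.3 in the peritubular capillary cells, while in arterial-type cells it went from 2.15 to 6.68 and 5.86 (difference -1.61, adjusted p = 0.0153). Slco2a1, a prostaglandin transporter, was at 0.226 in the control and 0.807 and 0.78 in AKI in the peritubular capillary cells and at 1.82, 0.994 and 0.628 in the arterial-type cells (difference 2.92, adjusted p = 0.000797). Igfbp5, Rgcc and Slco2a1 were named here after their values were seen.

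Set against T lymphocytes in the same way, the change differed for 12 of 14325 genes in AKI (0.0838%, with 0.0419% in each direction) and 32 in CKD (0.223%, 0.161% higher and 0.0628% lower). Leaving out AKI replicate 1, AKI replicate 2, CKD replicate 1 or CKD replicate 2 gave 0, 1, 131 and 151 calls in AKI, and leaving out AKI replicate 2, CKD replicate 1 or CKD replicate 2 gave 17, 396 and 84 in CKD. The capillary cells had the more positive change of Fos (by 1.59 in AKI and 1.92 in CKD on the log2 scale, edgeR adjusted p = 0.0417 and 0.0145), of Klf2, a transcription factor of laminar flow (by 2.18 and 2.50, adjusted p = 0.0367 and 0.0145), and of Tnfaip3 (by 2.20 and 2.73, adjusted p = 0.0257 and 0.00909). Nrp1 had the more negative change in AKI (-1.99, adjusted p = 0.0473), and so had Esm1 in AKI and CKD (-4.51 and -3.71, adjusted p = 0.0257 and 0.0177). For Cdkn1a the difference from T lymphocytes was 0.63 in AKI and did not pass (adjusted p = 0.449), as T lymphocytes went from 0.457 UMIs per 10000 in the control to between 1.12 and 1.62. Nor did it pass in AKI for Phlda3 (1.26, edgeR adjusted p = 0.587), Icam1 (1.36, 0.0946), Vcam1 (-0.51, 0.851), Cxcl2 (1.36, 0.237) or Cxcl10 (1.39, 0.168). Sele (3.92 ± 2.65, adjusted p = 0.711) and Selp (3.61 ± 1.57, 0.599), both near 0 in T lymphocytes, did not pass either. Of the genes given above as lower, Btnl9, Clic5, Ltbp1, Crispld1, Npr3 and Igfbp5 did not pass in AKI (adjusted p of 0.576 to 0.983). On simulated data this interaction in AKI recovered 1% of 2-fold and 32% of 4-fold changes, so a gene that did not pass may still differ. Klf2 itself stood at 13.9 UMIs per 10000 in the capillary cells of the control and between 22.8 and 39.7 in the injured libraries.

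The peritubular capillary cells were not uniform. Cells with at least 4 UMIs of Igfbp3 were 50.2% in the control, 42.3% and 54.3% in AKI, and 55.1% and 60.3% in CKD. These cells held more Esm1 than the others in every library, 21.0 against 6.97 UMIs per 10000 in the control, 3.76 against 1.07 and 4.37 against 0.874 in AKI, and 8.53 against 4.22 and 4.10 against 1.59 in CKD. Btnl9 was likewise higher in them, 4.47 against 2.08 in the control and 1.14 to 1.48 against 0.337 to 0.677 in the injured libraries. The level of Esm1 was lower in the injured libraries than in the control on both sides of the split. The split used the cells' own counts and is a description with no test. Cells on the Igfbp3 side had a higher median of UMIs than the others in each library, 7315 against 4172.5 in AKI 1.

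P-selectin was found in a small part of the cells. A Selp UMI was held by 6 of 1063 cells in the control, 33 of 163 and 25 of 175 in AKI, and 9 of 245 and 13 of 131 in CKD. After thinning to 1000 UMIs the shares were 0.0966% in the control, 8.70% and 4.76% in AKI, and 1.63% and 5.47% in CKD. In each injured library the cells with Selp held more Sele than the rest, 1.79 against 0.455 and 2.68 against 0.782 UMIs per 10000 in AKI, and 3.81 against 0.707 and 3.44 against 0.772 in CKD. They also held more Icam1, 9.55 to 14.7 against 4.54 to 6.10, and more Vcam1, 6.71 to 15.2 against 1.94 to 3.93. The venous marker Vwf was higher in them in the control, 2.67 against 0.0168, and in AKI, 0.238 against 0.0929 and 1.02 against 0.109. In CKD it was at 0 in them, against 0 and 0.0437 in the rest. Nr2f2 was higher in the Selp cells of the control, AKI 2 and CKD 1 and lower in those of AKI 1 and CKD 2. The cells with Selp had a higher median of UMIs than the rest in each library, and no test was made.

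**Figure D5:**
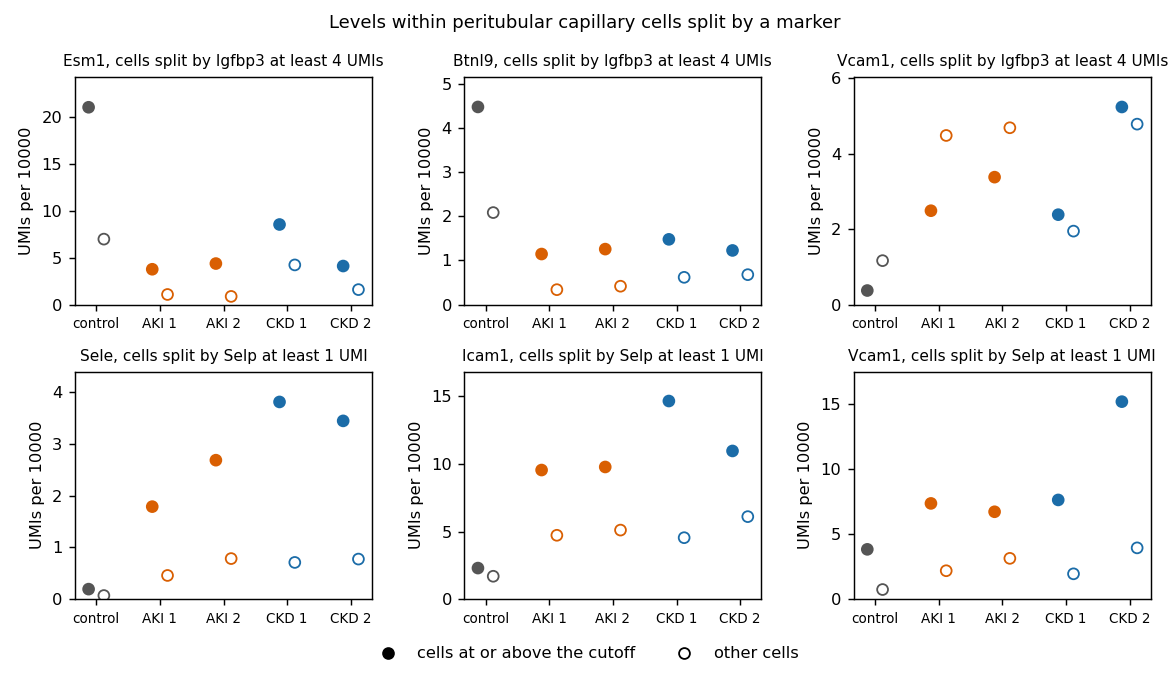
Level of 5 genes in UMIs per 10000 (vertical axes, linear, from 0; Vcam1 is drawn in both rows) in each library (horizontal axes), for peritubular capillary cells at or above a cutoff (filled) and the other cells (open). The upper row splits the cells by Igfbp3 at 4 UMIs and the lower row by Selp at 1 UMI, where the filled point of the control rests on 6 cells. Esm1 and Btnl9 lie higher in the Igfbp3 cells of each library, and Sele, Icam1 and Vcam1 in the Selp cells.

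The last comparison asks what changed between week 2 and week 4. Of 9371 genes tested between CKD and AKI, edgeR called 0 (0.0%) at an adjusted p under 0.05, while 525 (5.6%) had an unadjusted p under 0.05. DESeq2 called 43, of which 4 were higher in CKD, and edgeR called 2, 16 and 14 without AKI replicate 1, AKI replicate 2 and CKD replicate 1. On data simulated for this comparison with 9337 genes tested, edgeR recovered 25% of 2-fold and 91% of 4-fold changes. The simulated dispersion, the spread between libraries, was 0.03, below the 0.0436 estimated for this comparison. Only genes above a minimum of UMIs were changed in it. Recovery in these data may thus be lower, and differences of these sizes or smaller could have been missed. None of the 19 gene lists held a call, and the list medians lay between -0.41 and 0.30 on the log2 scale. All 34 respiratory chain genes had a positive log2 fold change, with a median of 0.24, beside the T lymphocyte levels given above. The levels of Cdkn1a, Phlda3, Sele, Cxcl2 and Tnfaip3 in the CKD libraries lay close to those in the AKI libraries, as given above.

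The genes nearest to a call lay in few cells. Mgp, a matrix protein gene of vessels and mesenchyme, stood at 34.5 and 13.4 UMIs per 10000 in AKI and at 0.166 and 0.0784 in CKD, with 1.56 in the control. Fn1, which encodes fibronectin, stood at 0.644 and 0.456 in AKI and at 0.00921 and 0.0131 in CKD. The AKI and CKD libraries did not overlap for either gene, as for 22.6% of all genes tested with CKD lower (13.4% with CKD higher), and the adjusted p was 0.0689 for both. A single cell held 49.3% and 63.3% of the Mgp UMIs, and 54.9% and 74.6% of the Fn1 UMIs, in the AKI libraries. The pericyte and fibroblast markers were also higher there than in CKD, as given above, and their part in these values was not tested. All of these genes were named after their values were seen.

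Genes spread over more cells had smaller differences that did not pass. Slc2a1, the glucose transporter GLUT1, stood at 0.836 and 1.04 UMIs per 10000 in AKI and 0.295 and 0.327 in CKD, with 0.483 in the control (log2 fold change -1.54, edgeR adjusted p = 0.197). Igfbp7, which encodes a binding protein secreted by endothelium, stood at 17.7 and 13.0 in AKI, 4.96 and 3.87 in CKD and 6.24 in the control (log2 fold change -1.75, adjusted p = 0.198). Ada, adenosine deaminase, was the other way round, at 0.248 and 0.325 in AKI, 0.839 and 0.758 in CKD and 0.514 in the control (log2 fold change 1.54, adjusted p = 0.198). Slc2a1, Igfbp7 and Ada were chosen after their values were seen, and they passed in 2, 4 and 2 of 16 alternative settings.

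Against arterial-type cells the difference between CKD and AKI was called for 5 of 10277 genes, 0.0487%. The 4 with a lower difference (0.0389%) were Fn1, Mgp, Slc14a2 and Slc12a3, and the 1 with a higher difference (0.00973%) was Klk1. Slc14a2, Slc12a3 and Klk1 are genes of the tubule, and in at least 1 library a single cell held 90.3% of the Slc12a3 UMIs, 86.8% of the Klk1 UMIs and 73.3% of the Slc14a2 UMIs. Against T lymphocytes 1 of 14178 genes was called, 0.00705%, again Slc14a2. Without AKI replicate 2 there were 15 calls against arterial-type cells and without CKD replicate 2 there were 0. Against T lymphocytes, leaving out AKI replicate 1, AKI replicate 2, CKD replicate 1 or CKD replicate 2 gave 7, 47, 132 and 53 calls.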

How the data were processed

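Single-cell suspensions of kidney were sequenced with the 10x Genomics 3′ kit in 5 libraries (1 control, 2 AKI, 2 CKD). The deposited values are raw counts of UMIs, made by the authors with Cell Ranger, in matrices of 32285 genes by cell barcodes. The submitters' processing notes name Cell Ranger 7.2.0, STAR and GRCm39, whereas the headers of the AKI and CKD matrices name version 5.0.0 and the control's gene table names mm10, so the build was not settled and no coordinates were taken from the files. The study's methods name an ambient RNA correction and a doublet caller for its own analysis. All deposited counts were whole numbers, the files do not state whether either step had been applied, and neither was run here.

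Barcodes with more than 30% mitochondrial UMIs or fewer than 200 genes were left out. The rule for peritubular capillary cells, the gene lists and the markers were chosen with earlier results of these data known. Because the rule reads UMIs of the same cells, Plvap, Kdr, Emcn and the other 10 rule genes were given no call. Levels are UMIs per 10000 UMIs summed over a library's cells. Arterial-type cells had at least 2 UMIs of Sox17, Gja4 and Gja5, and T lymphocytes at least 2 UMIs of the Cd3 genes. T lymphocytes also needed a Ptprc UMI, no C1q UMI and fewer than 2 UMIs of Plvap, Kdr and Emcn together. Cells are not replicates, so UMIs were summed per library and the sums entered the quasi-likelihood test of edgeR (version 4.0.16, R 4.3.3) after filterByExpr and TMM scaling. P-values were adjusted over all genes tested by Benjamini-Hochberg, with a threshold of 0.05, and DESeq2 1.42.0 served as an alternative. Differences between cell types were tested as interactions with the library as a block. The study tested single cells. The planned comparison with the control was a rule of size with no test, and all tests against the control were added after the data had been seen.

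Named genes were the 4 with the highest level of each list and up to 3 more that passed, the 10 largest rises and falls of CKD against AKI among calls (and 8 among genes enriched in these cells), and the 8 largest rises and falls of AKI against control by the rule of size among enriched genes. Genes outside this rule are said to have been chosen after their values were seen. Alternatives were other size factors, no filter on low counts, at most 15% mitochondrial UMIs, a stricter rule (6 UMIs, 2 of Plvap), thinning to 1000 UMIs, leaving out cells with markers of other types or with shared barcodes, and leaving out each library. On simulated data with 200 changed genes, the test against the control (10512 genes) recovered 13% of 2-fold and 73% of 4-fold changes, and the interaction with arterial-type cells (11106 genes) 7% and 48%. The interaction with T lymphocytes (14140 genes) recovered 1% and 32%. The simulated dispersion was 0.03, against 0.0482 estimated in the fit against the control, so that recovery in the data may be lower. Python 3.11.15, numpy 2.4.6, scipy 1.17.1 and pandas 2.3.3 were used.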

Additional observations from a re-analysis of the deposited data

Results flagged for a closer look

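Each of the following genes was singled out because its change differed between cell types in a test of that difference, given as log2 values of peritubular capillary cells minus the other type. No explanation was tested for any of them.

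Against arterial-type cells, the change from control to AKI differed by 2.77 for Phlda3, 2.92 for Slco2a1, 4.63 for Gda, which encodes guanine deaminase, and 2.58 for Adamtsl1. It differed by -1.83 for Igfbp5, -1.60 for Btnl9, -2.06 for Npr3 and -1.61 for Rgcc. From control to CKD the difference was 3.30 for Phlda3, 4.36 for Gda and 2.90 for Adamtsl1. Gda rested on few UMIs in the control, at 0.00829 UMIs per 10000 in peritubular capillary cells.

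Against T lymphocytes, the change from control to AKI differed by 2.20 for Tnfaip3, 1.59 for Fos, 2.18 for Klf2, 2.10 for the heat shock gene Hspa1b and 4.18 for Kcnj8, a potassium channel gene. It differed by -4.51 for Esm1 and -1.99 for Nrp1. From control to CKD the difference was 2.73 for Tnfaip3, 1.92 for Fos, 1.57 for Fosb, 2.05 for Jun, 2.50 for Klf2, 2.56 for Hspa1a, 2.86 for Hspa1b, 5.33 for Kcnj8, 1.85 for Socs3, 1.86 for Zfp36 and -3.71 for Esm1.

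Between AKI and CKD, the change differed from that in arterial-type cells by -6.06 for Fn1, -6.18 for Mgp, -3.87 for Slc14a2, -4.74 for Slc12a3 and 2.37 for Klk1, and from that in T lymphocytes by -3.36 for Slc14a2. Single libraries decided part of these values. Against arterial-type cells, Slc14a2 was -0.347 without CKD replicate 1, Slc12a3 was -1.83 and Klk1 1.52 without AKI replicate 1, and none of the 5 was called without CKD replicate 2.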

How the results depend on the processing

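None of the genes singled out in the text and followed through the alternatives changed direction. Of the values of single genes under the alternatives, 578 stayed on the same side of the threshold, 105 no longer passed and 74 passed only there. Between CKD and AKI the count of 0 became 43 with DESeq2, 142 without the filter on low counts, 3 with all 5 libraries, 6 at 15% mitochondrial UMIs, and 2 each after thinning and without cells carrying other markers, and it ranged from 0 to 16 with 1 library left out. With the replicate block it was 83 and with crossed numbers 0, but the labels do not say that the numbers pair the libraries. The deviations of AKI 1 and CKD 1 from their group means correlated at r = 0.27 across 9371 genes. The interaction with arterial-type cells went from 5 calls to 2 with DESeq2, 125 without the filter and 0 to 15 with 1 library left out. That with T lymphocytes went from 1 to 14 with DESeq2, 3 at 15% mitochondrial UMIs, 251 without the filter and 7 to 132 with 1 library left out. Against the control, the 60 calls of AKI became 193 with DESeq2, 29 with the stricter rule, 289 thinned, 659 without the filter, 5 without glomerular-marker cells, 573 without cells carrying other markers, and 58 to 223 with 1 library left out. The 10 calls of CKD became 122, 180 thinned, 500 without the filter, 2 and 349 in those settings, and 32 to 98. Without the filter, the interactions against the control gave 216 (AKI) and 71 (CKD) calls with arterial-type cells and 370 and 617 with T lymphocytes. With 1 library left out they gave 13 to 31, 2 to 13, 0 to 151 and 17 to 396, and with RLE size factors the AKI one with T lymphocytes gave 4. The 662 genes of the rule of size became 440 at 50 UMIs, and 1143 to 1347 with 1 AKI library. The share in CKD minus AKI was -0.0448 points over barcodes without Ptprc and -0.468 thinned (-0.289 to -0.132 with 1 library left out), against -0.210, and the control stood at 2.90, 7.02 and, at 15% mitochondrial UMIs, 10.1 times the mean of the injured libraries (7.82 to 8.48 with 1 left out). The cause was not tested. Depth limits genes under 1 UMI per 10000, which rest on few cells.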
